A study of Mus musculus with 2 samples.

Results

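The keratin genes were followed as 1 set in chromatin of MN1, an immortalized mouse cell line. The set was every protein-coding gene of GENCODE M21 whose symbol is Krt followed by a digit, leaving out the keratin-associated Krtap and Krtcap genes, which gave 53 of 21911 protein-coding genes. Of these, 27 lie in the type I cluster on chromosome 11 and 26 in the type II cluster on chromosome 15. Open chromatin had been mapped by DNase-seq, which finds DNA that the enzyme DNase I can cut in nuclei. The study holds 1 group, untreated as far as its labels say, of 2 biological replicates with 1 library each. The labels give the strain as B6NCrl, list age and developmental stage as unknown and sex as not collected, and name no tissue. They also name Illumina HiSeq 2500 and Illumina NextSeq 500 for replicate 2 and no instrument for replicate 1.

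Keratins build the intermediate filaments of epithelial cells. A type I keratin pairs with a type II keratin, and the pair in use marks the kind of epithelium: Krt8 with Krt18 in simple epithelia, Krt5 with Krt14 in the basal layer of stratified epithelia, Krt1 with Krt10 above it, and a large set of hair keratins in the hair follicle. The genes of each type lie side by side in 1 cluster, except that Krt18, a type I gene, lies next to its partner Krt8 at the end of the type II cluster. Keratins other than those of simple epithelia are usually silent outside epithelia.

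The measurements were 2 lists per library. A peak is a short interval, here 150 bp in the keratin clusters, with a score from 1 to 150 made by the authors. Because that score is capped and its normalization is not stated, it was turned into a percentile: the percent of peaks of the same library with a lower score, with ties split evenly. A hotspot is a wider region of enriched cutting with a q-value on the −log10 scale. Values above 6 had been set to 100, so 100 means only a value above 6. A promoter peak was a peak whose centre lay within 1 kb of any annotated start site of the gene, and a promoter hotspot was one that reached into that window. Peaks of the libraries that overlapped each other were called shared. Replicate 1 held 170286 and replicate 2 held 162691 peaks on the autosomes, X and Y. With 1 group, no comparison between groups exists and no p-value was computed. Genes are not replicates, and neighbouring keratins share their surroundings, so the counts describe these 2 libraries. Read depth is unknown, so a promoter with no peak is one where none was listed, not one shown to be closed.

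The sequences that carry the results are shown here from the mouse reference genome GRCm38 (mm10), read 5′ to 3′, with matches to searched motifs in capitals. The motifs, searched on both strands, were AP-1 (TGANTCA), AP-2 (GCCNNNGGC), SP/KLF (GGGCGGG), ETS (CCGGAA), E-box (CAGCTG), CRE (TGACGTCA), Grainyhead (AACNGGTT) and the TATA box (TATAAA). Matches may overlap, and a match is a run of letters, not a shown binding site. The strongest peak of either cluster, at chr15:101977476-101977625, is shown because it stood far above the keratin promoters. It is followed by a peak inside Krt8 at chr15:102002996-102003145, a second peak between Krt78 and Krt8 at chr15:101984336-101984485, and the strong peak just before Krt8 at chr15:102005416-102005565. All 4 are on the plus strand.
Strongest peak between Krt78 and Krt8: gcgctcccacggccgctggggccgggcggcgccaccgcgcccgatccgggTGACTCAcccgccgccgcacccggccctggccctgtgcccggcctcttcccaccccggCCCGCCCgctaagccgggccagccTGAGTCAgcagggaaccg
Peak in Krt8: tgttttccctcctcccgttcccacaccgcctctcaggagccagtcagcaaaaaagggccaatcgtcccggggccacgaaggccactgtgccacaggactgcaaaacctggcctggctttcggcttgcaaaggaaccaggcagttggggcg
Another peak between Krt78 and Krt8: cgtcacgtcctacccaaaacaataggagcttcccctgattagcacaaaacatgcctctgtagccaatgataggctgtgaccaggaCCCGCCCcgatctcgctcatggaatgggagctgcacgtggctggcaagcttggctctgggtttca
Peak upstream of Krt8: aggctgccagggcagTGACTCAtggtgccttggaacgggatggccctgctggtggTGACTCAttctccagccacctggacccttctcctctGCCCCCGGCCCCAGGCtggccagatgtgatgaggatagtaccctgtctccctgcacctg
In the top sequence, AP-1 matches began at bases 51 and 133 and an SP/KLF match at base 109. It held 20 CpG and 80.7% G and C, against 7 CpG and 61.3% in the peak inside Krt8, which matched none of the motifs. The third peak had 1 SP/KLF match, at base 86. The peak upstream of Krt8 had AP-1 matches at bases 16 and 56 and AP-2 matches at bases 92 and 99 that overlapped each other.

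Promoter peaks of the other keratins are shown because so few existed. The Krt222 peak is at chr11:99238616-99238765 and the Krt80 peak at chr15:101370476-101370625, both on the plus strand as listed in replicate 1.
Krt222 peak: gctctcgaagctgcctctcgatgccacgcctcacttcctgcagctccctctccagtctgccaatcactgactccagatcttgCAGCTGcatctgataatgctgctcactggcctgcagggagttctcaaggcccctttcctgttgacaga
Krt80 peak: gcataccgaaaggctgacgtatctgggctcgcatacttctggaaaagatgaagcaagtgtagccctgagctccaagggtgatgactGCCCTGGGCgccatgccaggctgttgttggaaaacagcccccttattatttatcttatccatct
The Krt222 peak had 1 E-box match, at base 83, and the Krt80 peak 1 AP-2 match, at base 87. Among all 30973 shared promoter peaks, 10.5% had an E-box match and 13.9% an AP-2 match.

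Krt8 and Krt18 are set side by side because their proteins pair while their promoters differed in these libraries. Stretches of their promoters come from RefSeq on GRCm38.p6. For Krt8 they are the bases before the GENCODE start, at chr15:102004483-102004592, and 30 bases around the TATA box, at chr15:102004327-102004356, both on the minus strand. For Krt18 the bases before the GENCODE start are at chr15:102027966-102028179 on the plus strand.
Krt8 before the start: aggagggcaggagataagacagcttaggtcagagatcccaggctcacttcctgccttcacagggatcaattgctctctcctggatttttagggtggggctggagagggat
Krt8 TATA box: tggcctcttctTTTATAAAgggccttcgct
Krt18 before the start: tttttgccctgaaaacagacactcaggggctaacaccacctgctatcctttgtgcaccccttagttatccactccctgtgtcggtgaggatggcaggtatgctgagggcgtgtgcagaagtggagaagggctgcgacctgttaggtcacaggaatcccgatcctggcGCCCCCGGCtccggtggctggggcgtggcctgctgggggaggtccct
The Krt8 capitals hold TATAAA on both strands, and the Krt18 capitals 1 AP-2 match. RefSeq places the Krt8 start 140 bp downstream of the GENCODE start, so this TATA box overlaps the RefSeq start and lies downstream of the GENCODE start. The 300-base RefSeq promoter held 6 CpG for Krt8 and 17 CpG for Krt18.

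Hardly any keratin promoter held a peak in these libraries. A promoter peak was found in both libraries at 3 of 53 keratins (5.66%), against 58.9% of all protein-coding genes. In replicate 1 it was found at 5 keratins (9.43%), against 60.8% of all genes, and in replicate 2 at 3 keratins (5.66%), against 60.6%. Promoter hotspots gave the same picture, with 3 keratins in both libraries against 59.4% of all genes. In replicate 1 there were 6 keratins (11.3%) with a promoter hotspot, against 61.3% of all genes, and in replicate 2 there were 3, against 61.1%. Neither a promoter peak nor a promoter hotspot was listed in either library for 47 keratins (88.7%), against 37.1% of all genes. This held in both clusters, with 25 of 27 such genes on chromosome 11 and 22 of 26 on chromosome 15.

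The 3 keratins with a promoter peak in both libraries were Krt8, Krt80 and Krt222, and they differed in where the peak lay. Krt8, the type II keratin of simple epithelia, had 2 promoter peaks in replicate 1 and 4 in replicate 2. In replicate 1 the peak that covered the GENCODE start had its centre 51 bp downstream of it, at percentile 53.7, and the other lay 691 bp downstream, at percentile 51.4. In replicate 2 the peaks lay 711 and 131 bp downstream, at percentiles 60.3 and 50.9, and 169 and 549 bp upstream, at percentiles 32.8 and 28.9. None of the replicate 2 peaks covered the start itself. By peaks within the 1 kb window, the Krt8 promoter was thus of middling rank in each library. Its 2 shared peaks overlapped in position, while the 2 upstream peaks were listed in replicate 2 only. The peak 169 bp upstream lay in a replicate 1 hotspot, however, and the peak 549 bp upstream did not. GENCODE also places the start of Gm36026, a long intergenic noncoding RNA gene on the plus strand, at position 102004212 in the same exon, so peaks of Krt8 and of Gm36026 cannot be told apart here.

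Stronger peaks stood on either side of the Krt8 start. One lay in the first intron, 1411 bp downstream of the start, at percentile 97.6 in replicate 1 and 92.0 in replicate 2. The other lay 1009 bp upstream, just outside the promoter window and in an intron of Gm36026, at percentiles 90.3 and 92.0. The hotspots followed these peaks: those over the flanks were at the cap of 100 in both libraries, while those over the start had −log10 q of 3.88 and 4.13 in replicate 1 and 3.74 and 3.84 in replicate 2.

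Krt80, a type II keratin described in human epithelia, had 1 promoter peak per library. Its centre lay 389 bp upstream of the start in replicate 1, at percentile 66.6, and 369 bp upstream in replicate 2, at percentile 43.0. Its hotspot had −log10 q of 100 in replicate 1 and 4.21 in replicate 2, so the site ranked higher in replicate 1 by both measures. Both annotations place it in an intron of the noncoding gene Gm35853.

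Krt222 is an atypical type I gene at the end of the chromosome 11 cluster. Within the 1 kb window its promoter peak ranked highest of any keratin, at percentile 82.6 in replicate 1 and 83.8 in replicate 2. The peaks that flank the Krt8 start, just outside that window, ranked higher. The Krt222 hotspot was at 100 in both libraries. The peak was not at the start of the coding transcripts, however: it lay 5394 bp downstream of the outermost start in replicate 1 and 5434 bp in replicate 2, over a coding exon. It counts as a promoter peak through a noncoding processed transcript of the gene that starts 184 bp from the peak centre in replicate 1 and 224 bp in replicate 2. With the outermost start of each gene alone, 2 keratins had a promoter peak in both libraries, Krt8 and Krt80, against 54.5% of all genes.

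Promoter signal in replicate 1 only was listed at Krt17, Krt78 and Krt72. Krt17, a keratin of skin appendages that is induced in wounds, had 1 peak 122 bp upstream of its start at percentile 16.2, with a hotspot of −log10 q 1.87. Krt78, a type II keratin of stratified epithelia, had 4 promoter peaks between percentiles 14.6 and 35.8, and 4 promoter hotspots of which 2 were at 100. Krt72, a keratin of the inner root sheath of the hair follicle, had a hotspot of −log10 q 1.67 and no peak within the window. That hotspot reached only into the edge of the window of an internal start of the gene, not of the outermost one. It lay within a replicate 1 peak whose centre was 1042 bp downstream of the same internal start, at percentile 7.90. No promoter peak or hotspot of these 3 genes was listed in replicate 2.

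**Figure D1:**
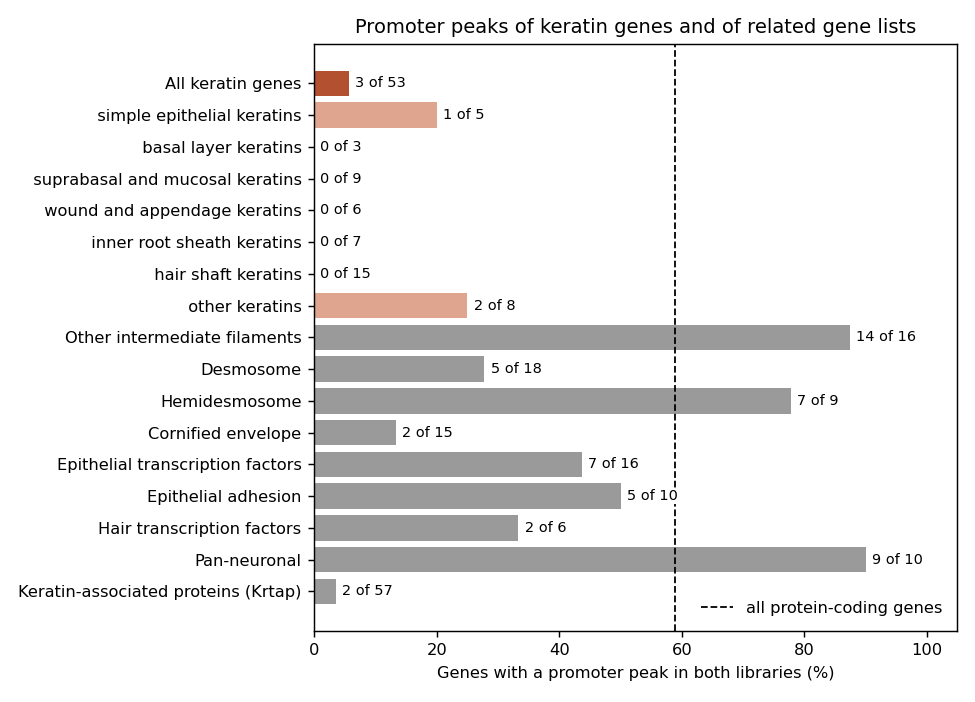
Percent of genes with a promoter peak in both libraries (horizontal axis) for all keratins, the 7 keratin groups and related gene lists, with the count beside each bar and a dashed line at all protein-coding genes. The keratin bar stands at 5.66%, left of the line at 58.9%, and 5 of the 7 keratin groups stand at 0.

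By function, no promoter peak in both libraries was found in the keratin groups of stratified epithelia, of wounds and appendages, and of hair. Most keratins of the remaining groups had none either, whereas 58.9% of all genes had one. Of the 5 keratins of simple epithelia, Krt8 had a promoter peak in both libraries, and Krt7, Krt18, Krt19 and Krt20 had none in either. All 3 basal keratins, Krt5, Krt14 and Krt15, lacked a promoter peak or hotspot in either library, as did the 9 suprabasal and mucosal keratins, Krt1, Krt2, Krt4, Krt9, Krt10, Krt12, Krt13, Krt76 and Krt77. Of the 6 keratins of wounds and appendages, Krt6a, Krt6b, Krt16, Krt42 and Krt75 had none and Krt17 only the replicate 1 signal given above. Among 7 keratins of the inner root sheath, Krt25, Krt26, Krt27, Krt28, Krt71 and Krt73 had none and Krt72 only a replicate 1 hotspot. None was found at the 15 hair shaft keratins, Krt31, Krt32, Krt33a, Krt33b, Krt34, Krt35, Krt36, Krt39, Krt40, Krt81, Krt82, Krt83, Krt84, Krt86 and Krt87. The remaining 8 were Krt222 and Krt80 with shared promoter peaks, Krt78 with peaks in replicate 1, and Krt23, Krt24, Krt79, Krt88 and Krt90 with none.

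Krt18, whose protein pairs with that of Krt8, had no promoter peak or hotspot in either library. Its nearest shared peak lay 2509 bp upstream in replicate 1, at percentile 16.2, and 2429 bp upstream in replicate 2, at 24.7. Its neighbourhood was nevertheless rich in peaks, with 14 shared peaks within 50 kb of its start, against 16 for Krt8 and a median of 8 over all genes. Of the 6491 protein-coding genes with at least 14 shared peaks within 50 kb, 86.2% carried a promoter peak in each library and 747 (11.5%), Krt18 among them, had none in either. Its promoter was also not poor in CpG by the standard of the family: the ratio of observed to expected CpG, taken over 500 bp either side of the start, was 0.547 for Krt18 and 0.378 for Krt8. When the promoter was widened to 2.5 kb, hotspots in both libraries reached into the Krt18 window.

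Most keratins lay far from shared peaks. The median keratin had 1 shared peak within 50 kb of its start, with a range from 0 to 16, against a median of 8 over all genes. For 18 keratins (34.0%) there was none, against 18.8% of all genes. The median distance from the start to the nearest shared peak was 30676 bp for keratins and 322 bp for all genes. After Krt8 and Krt18, the keratins with most shared peaks within 50 kb were Krt78 with 11, Krt79 with 9 and Krt80 with 8. Krt78 and Krt79 lie beside the peaks downstream of Krt8, and neither had a shared promoter peak. The longest distance was that of Krt19, a simple epithelial keratin, at 133506 bp.

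Promoters with few CpG are open in fewer cell types as a rule, and keratin promoters are poor in CpG, so the counts were also read by CpG class. The median observed/expected ratio was 0.303 for keratins and 0.553 for all genes. In the 3 lowest deciles of this ratio, 0 of 17 keratins had a promoter peak in both libraries, against 18.1% of all genes in these deciles. In the deciles above, it was 3 of 36 keratins, against 76.5% of all genes there. By decile, it was 2 of 23 keratins against 41.9% of all genes in decile 4, 1 of 11 against 60.3% in decile 5, and 0 of 2 against 77.7% in decile 6. The keratin with a peak in decile 5 was Krt222, whose peak lay away from its outermost start. No keratin fell in a higher decile. In all, 5.66% of keratins had such a peak, against a mean of 41.5% when each keratin was given the share of all genes in its own decile.

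**Figure D2:**
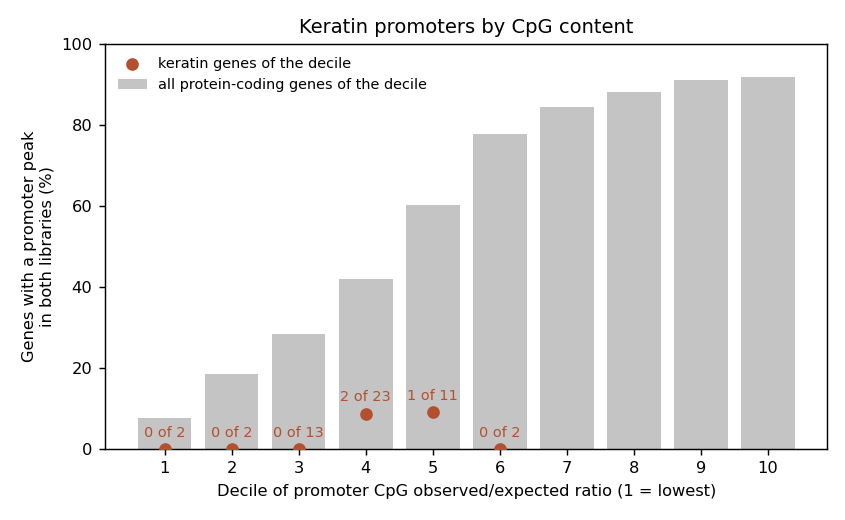
Percent of genes with a promoter peak in both libraries (vertical axis) by decile of promoter CpG observed/expected ratio (horizontal axis, decile 1 lowest), with points for keratins, labelled by count, and bars for all protein-coding genes. Keratins occupy deciles 1 to 6 and lie below the bar of all genes in each.

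The letters of the promoters showed the same class. RefSeq promoter sequences, 250 bases before to 50 after the start, were matched by symbol for 36 of 53 keratins and for 16522 protein-coding genes. TATAAA was found on either strand in 19 of 36 keratin promoters (52.8%), against 12.9% of all promoters. GGGCGGG, the SP/KLF letters, was found in 1 of 36 (2.78%), that of Krt7, against 35.2% of all. Of the 19 keratins with TATAAA, Krt8 had a promoter peak in both libraries and the other 18 did not. Over all genes, 31.2% of those with TATAAA had such a peak, against 65.4% of those without.

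Along the chromosome 11 cluster, between Krt222 and Krt42 (chr11:99232761-100269871, 1.037 Mb), peaks were sparse and weak. Replicate 1 listed 15 peaks and replicate 2 listed 13, or 14.5 and 12.5 per Mb, against 107.8 and 103.8 per Mb over all of chromosome 11. Of these, 7 were shared, or 6.75 per Mb, against 73.7 per Mb over the chromosome. Hotspots covered 0.303% of the cluster in replicate 1 and 0.264% in replicate 2, against 3.84% and 3.59% of the chromosome. The shared peak of highest rank was that of Krt222. The next lay upstream of Krt20, at chr11:99464896-99465045, at percentile 66.6 in replicate 1 and 39.8 in replicate 2. Others were at chr11:99307696-99307845, downstream of Krt25 (percentile 62.5 in replicate 1 and 38.2 in replicate 2), at chr11:99379716-99379865, upstream of Krt28 (51.4 and 28.9), and at chr11:99463236-99463385, also upstream of Krt20 (42.1 and 20.4). Each of these 4 intergenic peaks ranked higher in replicate 1, and none matched any of the searched motifs. Apart from Krt222, no shared peak of this cluster was above the median score in both libraries.

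**Figure D3:**
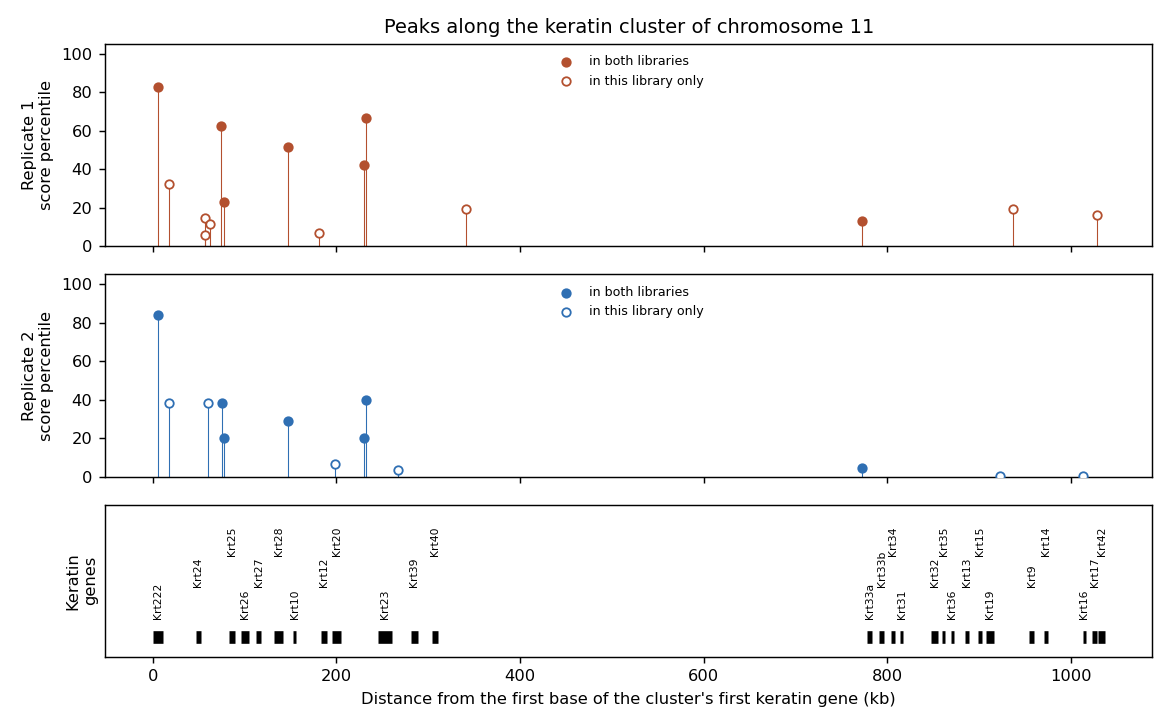
Score percentile of each peak (vertical axes, replicate 1 above replicate 2) along the chromosome 11 keratin cluster, in kb from the first base of Krt222 (horizontal axis), with filled points for shared peaks, open points for peaks of 1 library and black bars for keratin genes. The 7 shared peaks leave a long stretch near the middle of the cluster without points.

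The middle of this cluster held the longest stretch without a peak in either library, 430.5 kb at chr11:99574386-100004915, and no hotspot lay inside it. It holds 37 protein-coding genes and no keratin, among them 20 Krtap genes, whose proteins fill the space between keratin filaments in the hair shaft. Of the 16139 such intervals between peaks on chromosome 11, 23 were longer. The next stretch, 150.8 kb, held 10 keratin genes from Krt33a to Krt19. Repeats can hide peaks where reads cannot be placed, and of the words of 31 bases in these stretches 79.2% and 95.7% occur once in the genome. Over the window of each keratin promoter this share ran from 65.7% (Krt16) to 100%, with a median of 96.4%. On chromosome 15 the longest stretch without a peak, 108.6 kb, held Krt6b, Krt6a, Krt5 and most of Krt71, whose start lies outside it, with 84.1% of words unique, and another of 64.5 kb held Krt84, Krt82, Krt90 and Krt75.

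Along the chromosome 15 cluster, between Krt80 and Krt18 (chr15:101347444-102032027, 684.6 kb), the peaks were concentrated at the Krt8 end. Over the whole cluster replicate 1 listed 52 peaks and replicate 2 listed 38, or 76.0 and 55.5 per Mb, against 77.3 and 72.2 per Mb over chromosome 15. Shared peaks numbered 22, or 32.1 per Mb, against 50.6 per Mb over the chromosome. The cluster was then split at the start of Krt78, a boundary chosen after its peaks had been seen, so the contrast is a description. The 77.7 kb from there to the end of Krt18 held 27 peaks in replicate 1 and 20 in replicate 2, with 16 shared, or 205.8 per Mb. The 606.8 kb from Krt80 through Krt78, with 24 of the 26 keratins, held 25 and 18 peaks, with 6 shared, or 9.89 per Mb. That value is close to the 6.75 per Mb of the chromosome 11 cluster.

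**Figure D4:**
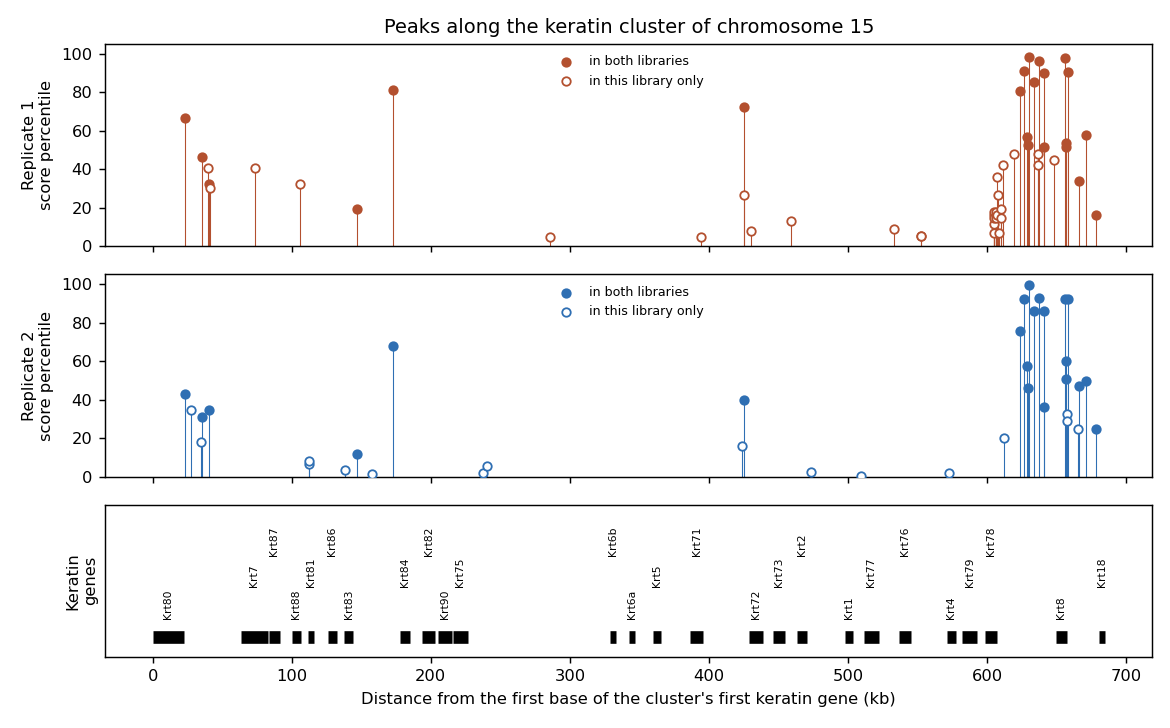
Score percentile of each peak (vertical axes, replicate 1 above replicate 2) along the chromosome 15 keratin cluster, in kb from the first base of Krt80 (horizontal axis), with filled points for shared peaks, open points for peaks of 1 library and black bars for keratin genes. Of the 22 shared peaks, 16 lie between Krt78 and the end of Krt18, at the right of the plot.

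The strongest peak at the Krt8 end lay between Krt78 and Krt8, not at a GENCODE promoter. In that 42.4 kb, replicate 1 listed 20 peaks and replicate 2 listed 10, of which 9 were shared. The shared ones had a median percentile of 85.3 in replicate 1 and 86.2 in replicate 2. The strongest, 26931 bp downstream of the Krt8 start and 23264 bp upstream of that of Krt78, was at percentile 98.4 in replicate 1 and 99.5 in replicate 2. The peak at chr15:101984336-101984485 was at 96.0 and 92.6, and a peak at chr15:101973816-101973965 at 91.2 and 92.3. All 3 ranked far above the peaks within 1 kb of the Krt8 start, with little change between libraries. Peaks just outside that window also ranked high, as given above. GENCODE has no transcript over the 3 peaks between the genes. RefSeq has a predicted Krt78 transcript that starts at position 101996624 and places all 3 in its intron. No shared peak lay within 1 kb of that predicted start, where replicate 1 listed 1 peak and replicate 2 none. Between Krt8 and Krt18, 4 peaks were listed in replicate 1 and 7 in replicate 2, and 4 were shared, among them the peak 1009 bp upstream of Krt8.

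**Figure D5:**
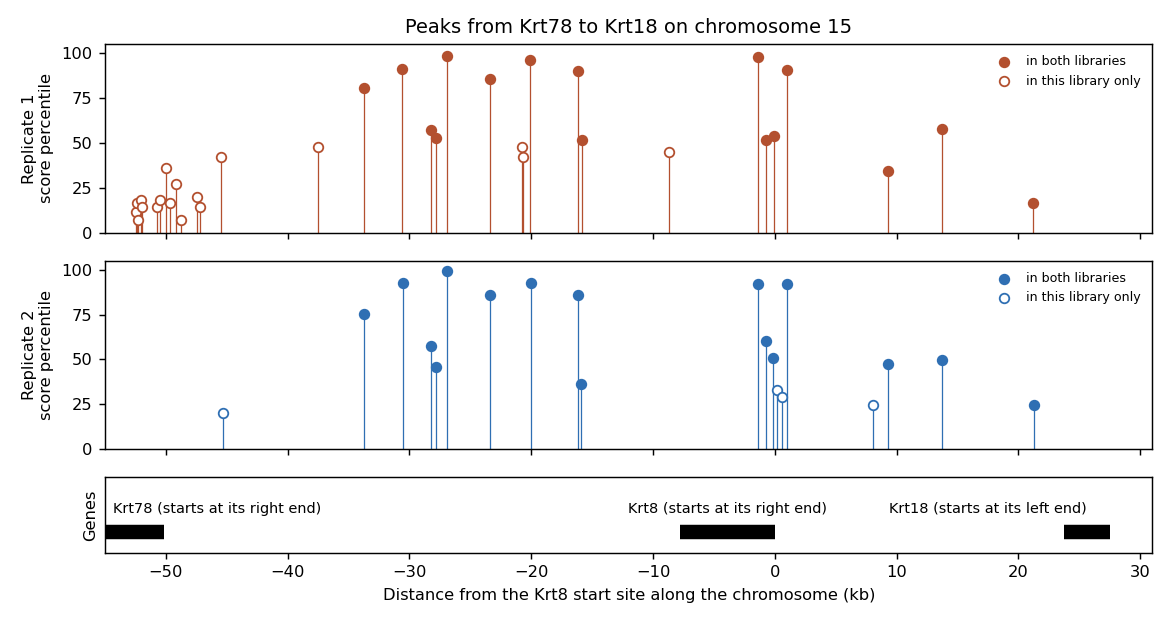
Score percentile of each peak (vertical axes, replicate 1 above replicate 2) by distance in kb from the Krt8 start along chromosome 15 (horizontal axis), with filled points for shared peaks, open points for peaks of 1 library and black bars for genes. The shared peaks between Krt78 and Krt8 reach percentiles 98.4 and 99.5, and the cluster of open points at Krt78 appears in replicate 1.

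In sequence, some of the peaks at the Krt8 end held letters of CpG-rich promoters. Of the 12 shared peaks from the Krt78 start to the Krt8 start, 3 (25%) matched SP/KLF letters, all 3 between the genes. Of all shared distal peaks genome-wide, 3.30% did, and of all shared promoter peaks 23.1%. AP-1 letters were found in 1 of the 12, the strongest peak, against 14.7% of all shared distal peaks and 5.04% of shared promoter peaks. The 12 include the shared Krt8 promoter peaks. They leave out the peak 1009 bp upstream of Krt8, which matched AP-1 and AP-2. In the 22 shared peaks of the whole cluster AP-1 matched 2 and AP-2 matched 3. With so few peaks these shares describe the sites and nothing more.

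Peaks listed in 1 library were a larger share of the keratin clusters than of the genome, and they were weak in both. Shared peaks made up 46.7% of the chromosome 11 cluster peaks and 42.3% of the chromosome 15 cluster peaks in replicate 1, against 67.1% genome-wide. In replicate 2 they made up 53.8% and 57.9%, against 70.2%. On chromosome 11, 8 peaks were listed in replicate 1 only and 6 in replicate 2 only, with highest percentiles of 32.4 and 38.2. On chromosome 15, 30 were listed in replicate 1 only and 16 in replicate 2 only, with highest percentiles of 47.7 and 34.7. None therefore reached the middle of its own list. Unshared peaks of the chromosome 15 cluster had median percentiles of 17.1 in replicate 1 and 7.74 in replicate 2, against 21.4 and 22.6 for unshared peaks genome-wide, where such peaks are weak as well.

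Krt78 accounted for many of the peaks listed in replicate 1 only. In a window from 2.5 kb downstream to 5 kb upstream of its start, replicate 1 listed 14 peaks and replicate 2 listed 1, with none shared. The 14 peaks lay between percentiles 6.95 and 42.1, and the 1 peak of replicate 2 at 20.4. Hotspots covered 2.54 kb of the window in replicate 1 and 0.13 kb in replicate 2. The labels name instruments for replicate 2 only, and the part of sequencing or of the cultures in this difference was not tested. This window was chosen after its peaks had been seen.

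No protein-coding gene inside either cluster that is not a keratin had a promoter peak or hotspot, whereas the genes just outside did. The chromosome 11 cluster holds 23 Krtap genes and 18 other protein-coding genes, and the chromosome 15 cluster 3 others. All had none in either library, as did 37.1% of all protein-coding genes. Smarce1, a subunit of a chromatin remodelling complex beside Krt222, was at percentile 92.4 in replicate 1 and 92.9 in replicate 2. Eif1, a translation initiation factor at the other end of that cluster, was at 98.1 and 99.5. Next to Krt80, 6030408B16Rik was at percentiles 64.2 and 62.0, and next to Krt18, Eif4b, another translation initiation factor, was at 99.9 in both. Genome-wide, a promoter peak in both libraries was listed for 2 of 57 Krtap genes (3.51%), against 58.9% of all genes.

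Most other intermediate filament genes had a promoter peak, with 14 of 16 in both libraries, against 58.9% of all genes. Lmna, which encodes lamin A and C of the nuclear lamina, was at percentile 99.3 in replicate 1 and 98.7 in replicate 2, and Lmnb1, which encodes lamin B1, at 99.5 and 98.2. A pair of neuronal filament genes also ranked high: Nefh, the heavy neurofilament subunit, at 99.3 and 98.4, and Prph, which encodes peripherin, at 97.6 and 95.9. None was listed for Des, the desmin gene of muscle, or Bfsp1, a lens filament gene. Since the labels name no tissue, a list of 10 pan-neuronal genes was read beside these. Of that list 9 had a promoter peak in both libraries, against the same 58.9%, among them Tubb3, a neuronal tubulin, at percentiles 99.7 and 99.9 and Snap25, a synaptic fusion protein, at 96.0 and 96.9. Dcx, a microtubule protein of young neurons, had none.

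Genes that work with keratins in epithelia were mixed. Of 18 desmosome genes, which encode the junctions that keratin filaments anchor to, 5 had a promoter peak in both libraries, among them Pkp4 (percentile 99.1 in replicate 1 and 99.3 in replicate 2, with later pairs likewise), Jup, the plakoglobin gene (99.3 and 97.1), Pkp2 (92.7 and 92.9) and Ppl (64.2 and 79.6). None was listed for Dsp, the desmoplakin gene that links desmosomes to keratins, Pkp1, Evpl or Perp. Of 9 hemidesmosome genes 7 had one, among them Plec, a linker of several filament types (98.6 and 99.5), Dst (97.1 and 98.7) and Cd151 (95.5 and 94.9), while Col17a1 and Lama3 had none. In the cornified envelope list, which holds proteins of the outermost skin, 2 of 15 did, Cdsn (85.3 and 72.1) and Tgm5 (65.0 and 64.4), and Lor, Ivl, Flg and Flg2 did not. The share of all genes is 58.9%, so desmosome and cornified envelope genes stood below it and hemidesmosome genes above it.

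The shares for transcription factors and adhesion genes of epithelia stood nearer to the 58.9% of all genes. A promoter peak in both libraries was found at 7 of 16 epithelial transcription factors (43.8%), among them Grhl1, a Grainyhead-like factor of epidermis (percentile 99.7 in replicate 1 and 98.7 in replicate 2), Klf5 (98.4 and 97.9), Klf4 (95.8 and 97.4) and Elf3 (91.9 and 93.1). Trp63, the master regulator of stratified epithelia, and Tfap2a, Tfap2b and Tfap2c, which encode AP-2 factors, had none in either library. Ehf had a single peak in replicate 2, at percentile 3.42. Of 10 epithelial adhesion genes, 5 (50%) had one in both, among them Tjp3 (97.6 and 96.6), Cgn (96.8 and 97.1), Crb3 (93.3 and 92.6) and Cldn4 (53.7 and 48.5). None was listed for Epcam and Cdh1, which encode adhesion proteins of most epithelia, or for Cldn3 and Cldn7. Of 6 hair transcription factors, 2 (33.3%) had one in both: Lef1 (85.7 and 88.8) and Gata3 (70.9 and 77.0). None was listed for Hoxc13, Foxn1, Msx2 and Dlx3.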

How the data were processed

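DNase-seq peaks and hotspots of MN1 were deposited as 1 list of each kind per library. Per the notes deposited with the files, each list is on mm10 and was made from 1 library after filtering of its alignments, so replicates were not pooled. Which aligner and caller were run, and with which cut-off, is not given in the sources used here. A peak score made by the authors runs from 1 to 150 and has no stated normalization. The hotspot q-value was deposited by the authors on the −log10 scale, with values above 6 set to 100. The depth of each library is unknown, so no counting intervals are given.

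Repeated peak entries were removed (43 in replicate 1, 20 in replicate 2), and the 19 autosomes, X and Y were kept. Gene models were those of GENCODE M21 on GRCm38, the assembly that mm10 also names (21911 symbols, 93444 start sites). A promoter took in 1 kb on each side of every start site, and any overlap of 1 bp made a peak shared. The median score, used in an alternative, was 49 in replicate 1 and 39 in replicate 2. Motif letters were matched on both strands of the reference genome, not of the libraries' reads. Sequence uniqueness was the share of 31-base words that occur once in the genome. Krt74 and Krt85 were on the keratin lists but are not protein-coding symbols of this annotation and were not used. Calculations were done in Python 3.11.15 with pandas 2.3.3 and numpy 2.4.6, and plots with matplotlib 3.10.9. The overlap code was tested on simulated data.

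Every keratin was named. Other lists were named by rule: up to 4 members, by mean percentile, that had a peak in each library, and up to 4 with none in list order. A gene that this rule names is not reported here. In the clusters the 5 shared peaks of highest mean percentile were named. The members, lists and motifs were chosen with earlier results of these data known. Alternatives were other promoter windows, the outermost start only, higher-scoring peaks or hotspots, a stricter overlap, longer clusters and each library alone. No test applied, since there was 1 group.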

Additional observations from a re-analysis of the deposited data

How the results depend on the processing

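The count of keratins with a promoter peak in both libraries, 3, stayed at 3 with promoter windows of 500 bp or 2.5 kb, with hotspots in place of peaks, and with any overlap in place of the peak centre, an alternative chosen after seeing the data. It was 2 with the outermost start alone, without Krt222, and 2 with peaks at or above the median score, without Krt80. Leaving out either library gave 3 to 5 for peaks and, for the 3 keratins with a promoter hotspot in both libraries, 3 to 6. That hotspot count was 2 at the cap alone or at the outermost start, 3 at 500 bp and 4 at 2.5 kb, where Krt18 was added. The share of all genes under the alternatives for peaks ran from 54.5% to 62.7%.

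Shared peaks of the clusters depended more on the settings. On chromosome 11 the 7 shared peaks stayed at 7 with an overlap of 75 bp. They were 1 among peaks at or above the median score and 17 with 50 kb added to each end. In 1 library alone no peak can be shared, so the values there, 13 to 15, count all its peaks in the cluster. On chromosome 15 the 22 became 19, 13 and 35 under the same alternatives, and all peaks of each library alone numbered 38 to 52. Fewer peaks enter at the median score and a longer region is counted with wider ends. No paired analysis was possible because there is 1 group and the results come from no test. Depth is unknown, so weak or missing peaks cannot be set against sequencing effort.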

Other observations

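Genes of the clusters that encode no protein also had few peaks at their starts. The share over all such genes of the genome was not computed, so these counts only describe the clusters. GENCODE lists 20 such genes in the chromosome 11 cluster and 22 in the chromosome 15 cluster, counting any that overlap its ends. None on chromosome 11 had a shared peak within 1 kb of a start. On chromosome 15 only Gm36026 did, the noncoding gene that starts in the first exon of Krt8, with best percentiles of 53.7 in replicate 1 and 60.3 in replicate 2. These are the Krt8 promoter peaks already described.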
